A study of Mus musculus with 4 samples.

Results

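The 9 genes described here (Raet1a, Raet1e, Abra, Fanca, Rrp7a, Fam89a, Agpat4, Psca and Pttg1) were chosen by the size of their measured log2 difference between Tlr3-deficient and wild-type (WT) alveolar type II cells in both tumor states. The choice was made from these same arrays, so their genotype differences are given as a description with no test. Every probe whose gene name on the array was 1 of these symbols was taken, which gave 13 probes of 41174 and 9 genes of 27349. The genes Raet1a, Fanca, Rrp7a and Agpat4 had 2 probes each, and the other 5 genes had 1 probe. Alveolar type II cells, lung epithelial cells that make surfactant, had been sorted by flow cytometry from 4 groups of mice labelled female. These were Tlr3-deficient mice (Tlr3-/-) with a tumor, Tlr3-deficient mice without a tumor, WT mice with a tumor and WT mice without a tumor. The tumor was Lewis lung carcinoma, a mouse lung cancer line, placed under the skin 2 weeks before the lungs were taken. Each group was 1 array, and the strain, the age, the number of mice per array and the deleted part of Tlr3 are not given in the sources used here. No p-value is given, and every difference describes a pair of arrays and covers spots, not animals.

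The 9 genes belong to several pathways. Raet1a and Raet1e encode retinoic acid early inducible proteins, surface ligands that cells display under stress and that engage NKG2D, an activating receptor of natural killer and T cells. Inbred mouse strains are known to differ in which Raet1 genes they carry. Abra encodes an actin-binding protein known from striated muscle, where it raises transcription through the MRTF coactivators and the factor SRF. Fanca is a core member of the Fanconi anemia pathway, which repairs DNA crosslinks, and Rrp7a takes part in building the small ribosomal subunit. Agpat4 adds an acyl chain to lysophosphatidic acid, Psca is a lipid-anchored surface protein of the Ly6 family, and Pttg1 is securin, the inhibitor of separase that holds sister chromatids together until anaphase. Fam89a is a little studied gene. Tlr3 itself encodes a receptor for double-stranded RNA.

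An array value for a gene is the signal of a short probe, so the probe sequences come first. Each probe is 60 bases, and all positions are on mm9. The first 3 probes are those of the Raet1 genes, shown because the genes are near copies. Capitals mark the bases shared by the first Raet1a probe and the Raet1e probe in their best ungapped alignment.
Raet1a probe A_51_P256771, chr10:22091319-22091378, plus strand: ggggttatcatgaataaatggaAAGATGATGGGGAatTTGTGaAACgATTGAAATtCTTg
Raet1e probe A_52_P10063, chr10:21901099-21901158, plus strand: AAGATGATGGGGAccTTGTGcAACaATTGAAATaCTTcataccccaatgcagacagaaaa
Raet1a probe A_51_P256766, chr10:22091401-22092018, plus strand: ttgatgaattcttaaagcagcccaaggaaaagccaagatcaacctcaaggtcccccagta
The first Raet1a probe and the Raet1e probe shared 32 of 38 aligned bases, with a longest shared run of 13. The second Raet1a probe lies 22 bases from the first and spans 618 genomic bases, more than its own length. A probe that crosses an intron would do so, but this was not checked. On the array annotation the first Raet1a probe carries 3 RefSeq accessions and the second carries 4, so neither is specific to 1 transcript. In the RefSeq gene table, the relative Raet1d holds 1 accession of the first probe and Raet1e holds 1 of the second, and the rest are not listed there. Signal of Raet1a cannot be told apart from that of these relatives.

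The next set holds Abra and Psca, a gene far lower and a gene far higher in Tlr3-deficient cells. It also holds the pairs of probes that did not both show a genotype difference. Abra and Psca each had a single probe.
Abra probe A_52_P348648, chr15:41697520-41697579, minus strand: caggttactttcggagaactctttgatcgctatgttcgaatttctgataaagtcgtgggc
Psca probe A_51_P253897, chr15:74546879-74546938, plus strand: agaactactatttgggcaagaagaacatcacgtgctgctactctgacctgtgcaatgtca
Fanca probe A_52_P466200, chr8:125840342-125842006, minus strand: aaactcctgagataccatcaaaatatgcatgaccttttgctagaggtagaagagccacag
Fanca probe A_52_P330214, chr8:125792210-125792269, minus strand, first 30 bases: tacactagaaaatagattaccaatctcctt
Rrp7a probe A_51_P361906, chr15:82946533-82946592, minus strand, first 30 bases: gaggctgtcacggaaatgtaggtatctgag
Rrp7a probe A_51_P150014, chr15:82944986-82945045, minus strand, first 30 bases: agaccacctctcgctttgtcttatccctcc
The Fanca probes lie 48072 bases apart, and the first of them shown spans 1665 genomic bases. The Rrp7a probes lie 1487 bases apart, and A_51_P150014 is annotated through an Ensembl transcript, with 0 RefSeq accessions. Across the 13 probes the GC content was 28.3 to 51.7%, with a median of 41.7% against 40% for all probes. The exon or untranslated region under each probe was not determined here, and alleles under the probes were not read.

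Values are log2 processed signal minus the array's 75th percentile. A probe well above background carries the scanner program's flag for that, and a dim probe does not. The 75th percentiles were 555 to 904 intensity units, and 61.0 to 65.4% of spots were well above background, with 0 saturated. Replicate spots of a probe varied in the genotype log2 difference with an SD of 0.110 with tumor and 0.293 without, since the WT array without tumor had noisier spots in its columns 1 to 51 (SD 0.331) than in the others (0.172). Of the 13 probes, 8 lay in those columns. The arrays came from 3 slides, with WT with tumor and Tlr3-deficient without tumor on the same slide, and the part of the slide in these differences cannot be told apart from that of the group. The 2 probes of Tlr3 were lower on the Tlr3-deficient arrays: A_52_P85174 (chr8:46481729-46481788) read -5.30 with tumor and -5.45 (dim) without, against -3.94 and -3.93 in WT. The other, A_51_P291906, read -5.36 with tumor and -6.38 (dim) without, against -4.10 and -4.83 in WT. Without tumor the first was at least 2.44-fold lower and the other at least 1.31-fold lower, a bound under 2-fold. Whether the Tlr3 probes lie in the deleted part is not known here. On the array labelled Tlr3-deficient without tumor, probes of Uty, Kdm5d, Eif2s3y and Ddx3y, genes of the Y chromosome, were above background and 1 Xist probe (A_51_P145453) differed by -8.10 log2 units from WT without tumor, which goes against its label of female. Each genotype difference is therefore given with tumor, which leaves that library out, and without tumor. All 12 type II cell markers were well above background on every array, 0 of 12 differed by 2-fold in either genotype comparison, and their summed log2 level was 11 and 11.1 in Tlr3-deficient cells with and without tumor, against 11.2 on both WT arrays. In a sorted pool, a difference in the number of cells carrying an RNA and in RNA per cell cannot be told apart.

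A probe was tested where either array of the comparison had it well above background, and called at a difference of 2-fold or more. Where 1 of the arrays was dim, the fold is a bound against the lowest level measured well above background on that array. In the comparison with tumor, 11 of the 12 tested probes were called (4 higher and 7 lower), against 5.09% of all tested probes (2.67% higher and 2.42% lower). Without tumor 11 of 12 were called (4 higher and 7 lower), against 7.89% (5.79% higher and 2.11% lower). The same 11 were called the same way in both, 4 higher and 7 lower in Tlr3-deficient cells, against 1.11% of all probes tested in both (0.577% higher and 0.534% lower). These counts restate the choice of the genes. That the genotypes did not overlap at a called probe, as given below, also follows largely from the choice. No share over all probes is set beside it. Of the 13 probes, 8 were well above background on all 4 arrays, and the 3 Raet1 probes were so on the WT arrays alone. The Psca probe was dim on 1 array, and Fanca A_52_P466200 was dim on all 4.

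**Figure D1:**
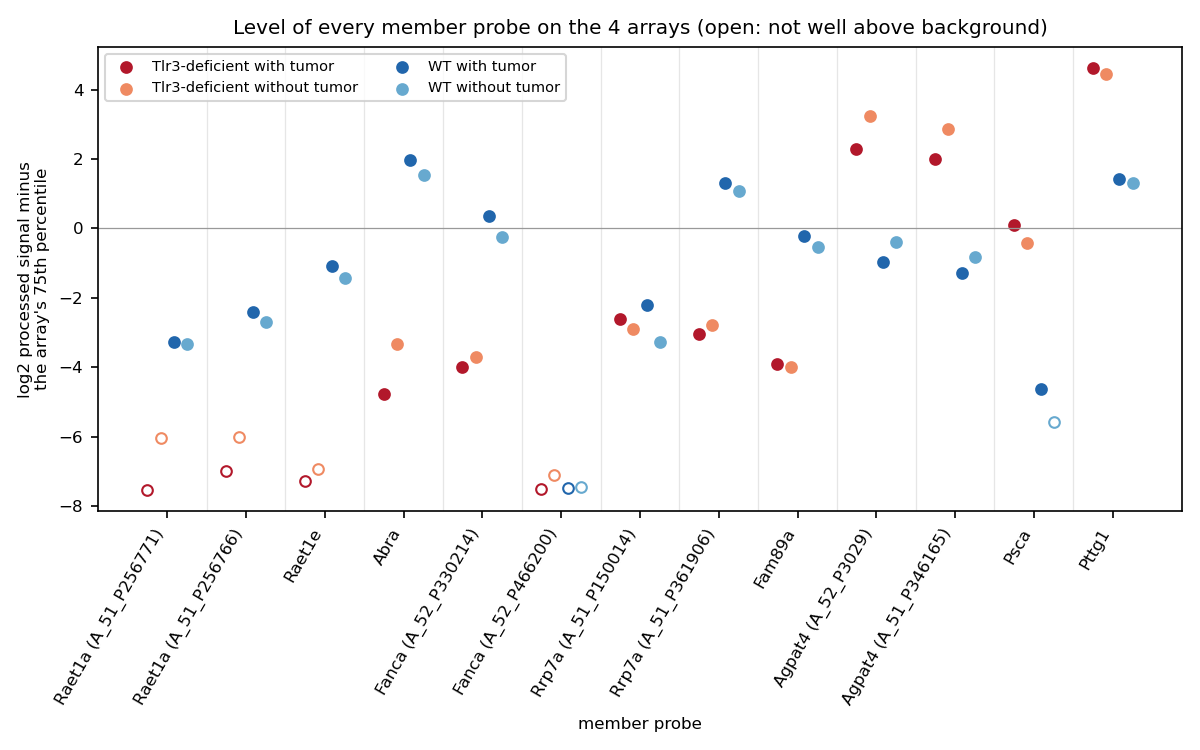
Log2 level (log2 processed signal minus the array's 75th percentile) of each of the 13 probes on the 4 arrays, 1 point per array, filled where the probe was well above background and open where it was dim. Most probes have the Tlr3-deficient arrays together and the WT arrays together, while Rrp7a A_51_P150014 and Fanca A_52_P466200 do not separate the genotypes.

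The NKG2D ligand genes Raet1a and Raet1e were measurable in WT cells and dim in Tlr3-deficient cells. Raet1a probe A_51_P256771 read -7.54 and -6.03 (both dim) in Tlr3-deficient cells with and without tumor, against -3.28 and -3.32 in WT cells with and without tumor. It was at least 4.39-fold lower with tumor and at least 3.71-fold lower without. Raet1a probe A_51_P256766 read -6.99 and -6.02 (both dim) in Tlr3-deficient cells, against -2.40 and -2.70 in WT, at least 8.09-fold lower with tumor and at least 5.72-fold lower without. Both probes of the gene gave the same direction. The genotypes did not overlap at either, with the Tlr3-deficient values dim. Raet1e, which encodes another ligand of the same receptor, read -7.29 and -6.93 (both dim) in Tlr3-deficient cells, against -1.09 and -1.42 in WT cells. This was at least 20-fold lower with tumor and at least 13.9-fold lower without. With normexp background correction, which adds an offset of 50 and so shrinks differences of dim probes by construction, the log2 differences with and without tumor were -1.10 and -1.04 for the first Raet1a probe, -1.74 and -1.60 for the second, and -2.77 and -2.0 for Raet1e. On bounds, the first Raet1a probe was then not called without tumor.

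The other ligands differed in direction. Of the 11 listed genes of NKG2D, its ligands and its adaptor, 7 were on the array under their names. With tumor 1 was higher and 3 lower of 5 tested, with a median of -1.06, against 2.9% higher and 2.62% lower of all genes by their brightest probe. The gene higher there was the ligand H60a, at least 4.26-fold, and beside Raet1a and Raet1e the lower gene was the ligand H60c, with a log2 difference of -1.06 (-0.73 without tumor, not called). Without tumor 0 were higher and 2 lower of 4 tested, against 5.89% higher and 2.33% lower of all genes. The 2 were Raet1a and Raet1e. Both were chosen for this difference, so the counts and the median that hold them partly restate the choice. The ligand Ulbp1 and the receptor gene Klrk1 were dim on every array, and the adaptor gene Hcst differed by 0.06 with tumor and 0.13 without.

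Abra, ranked by the smaller of both genotype differences, came first of all probes that were well above background on all 4 arrays. Its processed intensity was 33.2 and 74.8 units in Tlr3-deficient cells with and without tumor, against 3090 and 1620 units in WT cells with and without tumor. On the log2 scale this was -4.77 and -3.34 in Tlr3-deficient cells, against 1.96 and 1.55 in WT. The genotype difference was -6.72 with tumor (106-fold lower, SE 0.29 from the scanner's error model) and -4.89 without (29.6-fold lower, SE 0.22). The genotypes did not overlap, and the difference was 1.84 log2 units larger with tumor, which was not tested. With normexp the differences were -5.18 and -4.15. The gene has 1 probe, so no other probe can be set beside it.

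The known partners and targets of Abra did not show a like difference. Of 17 genes for Abra, the MRTF coactivators, SRF, myocardin and their targets, 1 was higher and 1 lower of 16 tested with tumor, against 2.9% higher and 2.62% lower of all genes, with a median of 0.12. Those were Ablim3, a partner of Abra, with a log2 difference of 1.49, and Abra itself. Without tumor 4 were higher and 1 lower of 17 tested, against 5.89% higher and 2.33% lower of all genes, with a median of 0.27. The 4 were the coactivator gene Myocd, at least 3.78-fold, and the contractile genes Cnn1 at 1.71, Tagln at 1.29 and Myh11 at 1.34. None of these genes other than Abra was called the same way in both comparisons. Markers of striated muscle, where Abra is known to be active, were called in 0 of 10 genes with tumor, and were higher in 3 of 10 without (Tnnt2, Actc1 and Acta1). Their summed level was 5.37 and 5.18 in Tlr3-deficient cells with and without tumor, against 5.32 and 5.01 in WT with and without tumor.

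Fanca was lower in Tlr3-deficient cells at 1 of its probes. Probe A_52_P330214 read -3.99 and -3.69 in Tlr3-deficient cells with and without tumor, against 0.36 and -0.24 in WT with and without tumor. The log2 differences were -4.35 (20.3-fold lower, SE 0.24) and -3.45 (10.9-fold lower, SE 0.24), and -3.24 and -1.99 with normexp. The genotypes did not overlap at this probe. Its other probe, A_52_P466200, was dim on every array, at -7.52 and -7.12 in Tlr3-deficient cells and -7.49 and -7.44 in WT cells. It thus gives no genotype difference to set beside the first. In WT cells the probes of Fanca differed in level, and why was not tested. Of 18 genes of the Fanconi anemia pathway, 17 were tested in each comparison, and Fanca was the 1 gene called in either, lower in both. Of all genes by their brightest probe, 2.9% were higher and 2.62% lower with tumor, and 5.89% and 2.33% without. The medians of the pathway were -0.26 with tumor and -0.06 without.

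Rrp7a was lower at 1 probe and close to equal at the other. Probe A_51_P361906 read -3.04 and -2.80 in Tlr3-deficient cells with and without tumor, against 1.29 and 1.06 in WT. The log2 differences were -4.33 (20.1-fold lower, SE 0.21) and -3.86 (14.5-fold lower, SE 0.21), and -3.76 and -2.95 with normexp. Probe A_51_P150014 read -2.60 and -2.91 in Tlr3-deficient cells, against -2.20 and -3.27 in WT cells. Its differences were -0.40 with tumor and 0.36 without, and its genotypes overlapped although it was well above background on all 4 arrays. The probes of Rrp7a thus differed from each other by 3.93 log2 units in the genotype difference with tumor and 4.22 without. The mean of both gave -2.37 and -1.75. Of 26 genes of the small subunit processome, which assembles on the ribosomal RNA precursor, all 26 were tested and Rrp7a was the 1 gene called in either comparison. Of all genes by their brightest probe, 2.9% were higher and 2.62% lower with tumor, and 5.89% and 2.33% without. The medians of the processome list were 0.01 with tumor and 0.03 without.

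Fam89a, with a single probe at chr8:127264377-127264436, read -3.91 and -3.98 in Tlr3-deficient cells with and without tumor, against -0.22 and -0.55 in WT. The log2 differences were -3.69 (12.9-fold lower, SE 0.23) and -3.43 (10.8-fold lower, SE 0.25), and -2.71 and -2.51 with normexp. The genotypes did not overlap. Its relative Fam89b differed by -0.09 with tumor and -0.24 without.

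**Figure D2:**
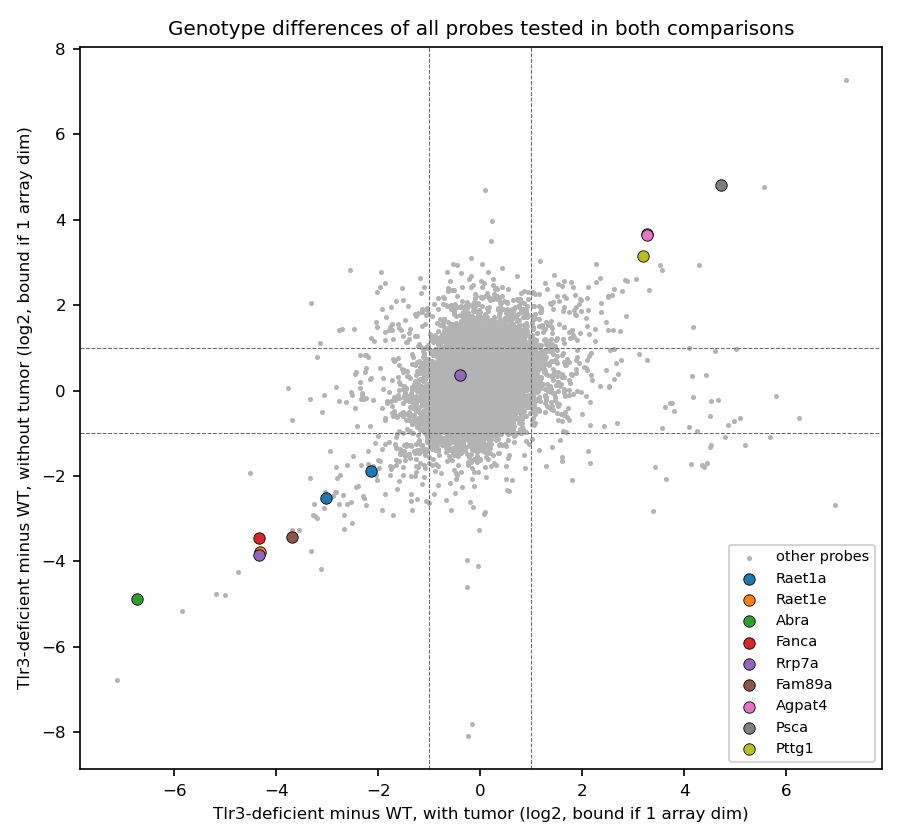
Genotype log2 difference (Tlr3-deficient minus WT) with tumor on the horizontal axis and without tumor on the vertical axis, for every probe tested in both comparisons, as a bound where 1 array was dim. Grey points are other probes, coloured points the 12 tested probes of the 9 genes, and dashed lines mark 2-fold: 11 coloured points lie in the lower left or upper right corner, and Rrp7a A_51_P150014 lies inside the lines.

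Agpat4 was higher in Tlr3-deficient cells at both of its probes, which are not independent of each other: they share 54 of 60 bases. Probe A_52_P3029 (chr17:12412417-12412476) read 2.28 and 3.25 in Tlr3-deficient cells with and without tumor, against -0.98 and -0.41 in WT. Probe A_51_P346165 (chr17:12412423-12412482) read 1.99 and 2.85 in Tlr3-deficient cells, against -1.28 and -0.82 in WT. The log2 differences were 3.26 (9.59-fold higher, SE 0.20) with tumor and 3.65 (12.6-fold higher, SE 0.20) without at the first probe, and 3.28 and 3.68 at the second. Both probes kept the genotypes apart, and their genotype differences differed from each other by 0.02 log2 units with tumor and without. Of 15 acyltransferases of lysophosphatidic acid and glycerol phosphate, 14 were on the array and tested. With tumor 1 was higher (Agpat4) and 1 lower (Gpat2, a glycerol phosphate acyltransferase, with a log2 difference of -1.05). Without tumor Agpat4 alone was called. Of all genes by their brightest probe, 2.9% were higher and 2.62% lower with tumor, and 5.89% and 2.33% without. The medians of the acyltransferases were -0.07 with tumor and -0.03 without.

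Psca had the largest difference among the higher genes. It read 0.09 and -0.43 in Tlr3-deficient cells with and without tumor, against -4.63 and -5.57 (dim) in WT with and without tumor. The log2 difference with tumor was 4.72 (26.3-fold higher, SE 0.29), and without tumor the gene was at least 28.2-fold higher. The genotypes did not overlap. With normexp the differences were 3.18 and 2.42. Of 22 genes of the Ly6 family, 20 were on the array and 18 were tested in each comparison, with 3 higher and 0 lower in each, against 2.9% higher of all genes with tumor and 5.89% without. With tumor these were Psca, Ly6k at 2.51 and Ly6d at 1.89, and without tumor Psca, Ly6k at 2.20 and Lypd6, at least 3.85-fold. The medians were 0.28 with tumor and 0.12 without. Psca was chosen for its difference, so its part in these counts restates the choice. Cells of basal and squamous epithelium could be sorted with the type II cells. Their markers were lower in 3 of 5 tested genes with tumor (Krt5, Krt14 and Krt17), against 2.62% of all genes. Without tumor these markers were called in 0 of 5. Their summed log2 level was 0.58 and 0.93 in Tlr3-deficient cells with and without tumor, against 2.0 and 0.81 in WT, and their part in the result was not tested. Ly6k, a surface protein gene of the same family, was the 1 gene of all the pathway lists, other than those described here for their size, that was called the same way in both comparisons, as were 1.16% of all genes by their brightest probe.

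Pttg1 was bright on all 4 arrays and higher in Tlr3-deficient cells. Its probe (chr11:43233801-43233860) read 4.62 and 4.45 in Tlr3-deficient cells with and without tumor, against 1.42 and 1.29 in WT, which is 22200 and 16600 intensity units against 2130 and 1360. The log2 differences were 3.20 (9.18-fold higher, SE 0.20) and 3.16 (8.94-fold higher, SE 0.20), the closest to equal between tumor states of the 9 genes. The other genes of mitotic exit did not follow it in both comparisons. Of 24 genes for securin, separase, the spindle checkpoint and cohesin, 1 was higher and 0 lower of 22 tested with tumor, against 2.9% higher of all genes, which was Pttg1, and the median was -0.08. Without tumor 4 were higher of 24 tested, against 5.89% of all genes, with a median of 0.01: Pttg1, the separase gene Espl1 (at least 2.80-fold), the checkpoint kinase gene Ttk (at least 4.03-fold) and the cyclin gene Ccnb1 (at least 2.22-fold). Markers of cycling cells were called in 0 of 7 genes with tumor and higher in 2 of 8 without. Their summed level was 0.98 and 1.96 in Tlr3-deficient cells with and without tumor, against 1.41 and 1.49 in WT, and their part in the result was not tested.

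Most of the genes stand at the end of a continuous ranking. Raet1a, Raet1e and Psca are not in it, because their probes were dim on at least 1 array. Over 13484 probes that were well above background on all 4 arrays and differed the same way in both comparisons, ranked by the smaller of both differences, Abra was at rank 1, Rrp7a at 4, Fanca at 5, Fam89a at 6, the Agpat4 probes at 7 and 8 and Pttg1 at 9. The unnamed transcript TC1686295 and 4930520O04Rik held the ranks between Abra and Rrp7a and are not among the 9 genes. Just outside were Pick1 at rank 10, with differences of 3.53 with tumor and 2.95 without, Snhg18 with -3.28 and -2.91, and Cyp26b1 with 3.57 and 2.83. At an 8-fold threshold in both comparisons, 20 probes were left (0.0774% of those tested), 9 of them of the genes described here and 11 of others. Raet1a was not among the 20, since the bounds of its probes without tumor were under 8-fold.

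Whether separate probes of a gene gave the same difference was asked for every gene on the array. With tumor 6419 genes had at least 2 tested probes, and the range of the genotype difference within a gene had a median of 0.26 log2 units. Of the 436 genes with any probe called, 56 (12.8%) had all tested probes called the same way. Of 20 such genes with a probe at 8-fold or more, 7 (35.0%) did, and the median range within a gene was 3.04. Without tumor the shares were 76 of 796 (9.55%) and 4 of 11 (36.4%). Among the 9 genes, 3 had both probes tested: Raet1a and Agpat4 gave 1 direction with ranges of 0.88 (between bounds) and 0.02 with tumor, and Rrp7a did not, at 3.93. The Raet1a pair is not specific to 1 gene and the Agpat4 pair covers nearly the same bases. For no gene of the 9 did 2 probes that do not overlap and are specific to 1 gene both show the difference, so a difference in level and a difference in the sequence under a probe cannot be told apart here.

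**Figure D3:**
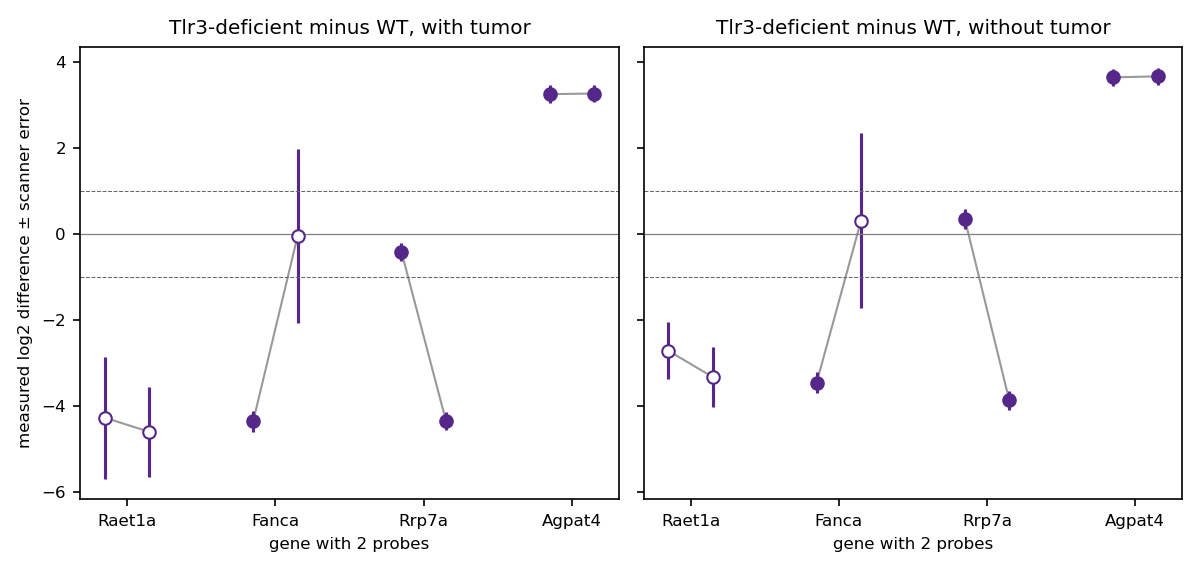
Genotype log2 difference (Tlr3-deficient minus WT) at each probe of the 4 genes with 2 probes, with tumor and without tumor, with the probes of a gene joined by a line. Vertical bars are 1 SE from the scanner's error model, open points had a dim array and are measured values, and dashed lines mark 2-fold. The lines of Raet1a and Agpat4 are short, while those of Rrp7a run from near 0 to -4.33 with tumor and -3.86 without and those of Fanca end at a probe that was dim on every array.

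The tumor differences of the 9 genes were not used to choose them. At the probes called for genotype they were smaller than the genotype differences. This follows from choosing the genes by the size of the genotype difference. In Tlr3-deficient cells with against without tumor, 0 probes were higher and 1 lower of 9 tested, against 7.52% of all tested probes (3.71% higher and 3.81% lower). That was Abra, with a log2 difference of -1.43, or -0.79 with normexp, where it was not called. In WT cells with against without tumor, 1 probe was higher and 0 lower of 12 tested, against 6.78% of all probes (5.15% higher and 1.63% lower). That was Rrp7a A_51_P150014, the probe with no genotype difference, at 1.06, and it was 0.61 with normexp, 0.95 with quantile normalization and 0.91 with median centring, under 2-fold in each. The Agpat4 probes differed by -0.97 and -0.86 between Tlr3-deficient cells with and without tumor, and by -0.58 and -0.46 between WT cells with and without tumor. The median over the tested probes was -0.24 in Tlr3-deficient cells, against -0.03 for all probes, and 0.32 in WT cells, against -0.01. Neutrophil markers were higher with tumor in 7 of 8 genes in Tlr3-deficient cells and in 8 of 8 in WT cells, and their part in these values was not tested. These comparisons share arrays with the genotype comparisons, and that in Tlr3-deficient cells holds the array whose sex-linked transcripts go against its label.

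The genes lie on 5 chromosomes: 3 on chromosome 15, 2 each on chromosomes 8 and 10, and 1 each on chromosomes 11 and 17. Within 500 kb of their probes, between probe midpoints, were 142 other probes of 103 genes that were tested in at least 1 genotype comparison. With tumor 5 of these were higher and 4 lower of 140 tested, against the 5.09% of all probes, and without tumor 11 were higher and 3 lower of 133 tested, against 7.89%. There were 5 called the same way in both, against 1.11% of all probes tested in both (0.577% higher and 0.534% lower). Close to Psca lay Jrk (11.4 kb, 1.38 with tumor and 1.22 without), Them6 (7.02 kb, 1.37 with tumor and at least 4.14-fold without) and Ly6k (80.7 kb, 2.51 and 2.20). Ly6d, 45.7 kb away, was 1.89 with tumor and 0.94 without. So 3 neighbours of Psca were higher with it in both comparisons, of 20 tested with tumor and 19 without. The median over all its neighbours was 0.22 with tumor and 0.05 without. Of all probes tested in both, 0.577% were higher in both.

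Near Abra, 1 probe of Oxr1, an oxidation resistance gene, was lower in both (39.1 kb, -1.21 with tumor and -1.17 without). The other probes of Oxr1 read 0.48 and -0.43 with tumor and 0.99 and -0.99 without, so the probes of Oxr1 gave no common direction. Bik, a gene of programmed cell death, lay 428 kb from Rrp7a and was lower in both (-1.72 and -2.93). Serhl, the closest neighbour of Rrp7a, read -0.77 with tumor and -0.85 without at the probe 238 bases away and 0.43 and 0.39 at another. Around Fanca, Fam89a, Agpat4, Pttg1 and the Raet1 genes no neighbour was called the same way in both comparisons. Called in 1 comparison alone were AK081016 near the Raet1 genes, Spata33, Cdh15, TC1661417 and AK144049 near Fanca, TC1684269 and 1700001L05Rik near Rrp7a, Pgbd5 and Agt near Fam89a, Adra1b near Pttg1, and Ly6d and Ly6m near Psca.

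**Figure D4:**
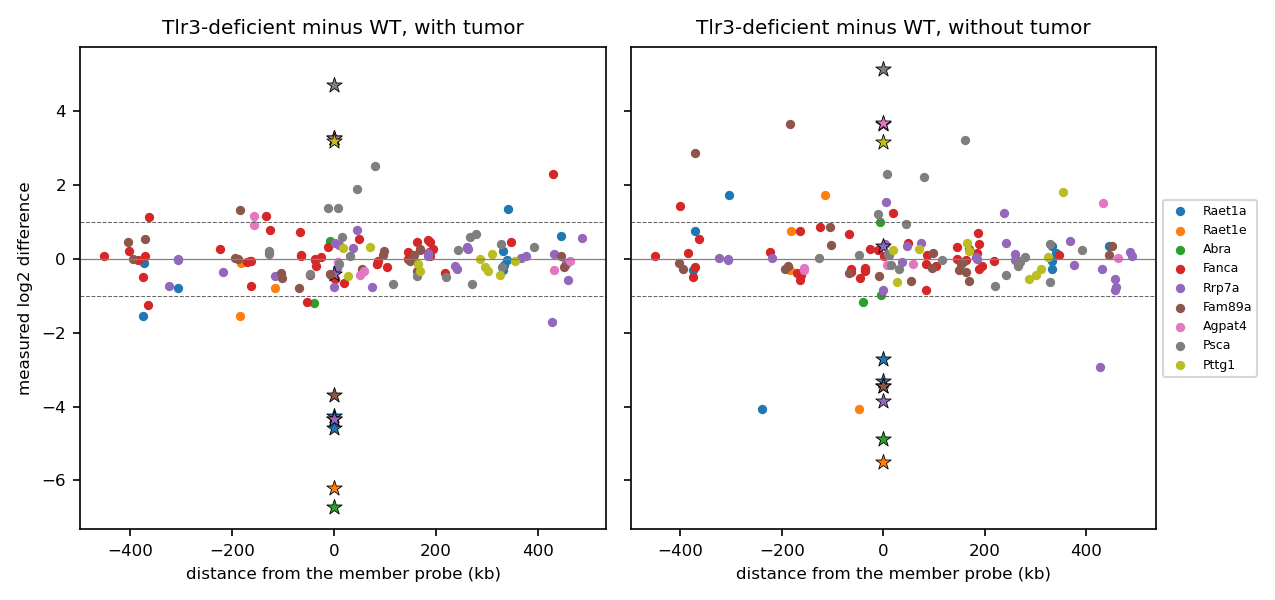
Measured genotype log2 difference (Tlr3-deficient minus WT) of neighbouring probes against their distance in kb from the nearest probe of the gene they are coloured by, with tumor and without tumor. Stars are the probes of the 9 genes at distance 0 and dashed lines mark 2-fold. Most neighbours, also those of Psca in grey, lie between those lines. Above them lie 4 grey points with tumor and 4 without, among them Ly6k at 2.51 with tumor and 2.20 without.

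Probes called the same way in both comparisons were unevenly spread over the chromosomes, also with the 9 genes left out. Without their probes the share was 3.04% on chromosome 15 (31 of 1019) and 1.47% on chromosome 8 (19 of 1295), against 1.05% of all placed probes (267 of 25355). With them it was 3.32% on chromosome 15, 1.62% on chromosome 8, 1.01% on chromosome 10, 0.749% on chromosome 17 and 0.591% on chromosome 11. Chromosome 9, which holds none of the 9 genes, had 3.07% and chromosome 18 the lowest share, 0.148%. In windows of 10 Mb, the window of Abra held 3 other such probes of 19 tested, too few to rank. The window of Psca held 7 of 237 (2.95%), that of Pttg1 3 of 69 (4.35%), that of Rrp7a 3 of 183 (1.64%) and that shared by Fanca and Fam89a 2 of 159 (1.26%). That of Agpat4 held 2 of 90 (2.22%) and that shared by Raet1a and Raet1e 1 of 69 (1.45%). The window on chromosome 8 that holds Tlr3 had 7 of 79 (8.86%). Strain background along the chromosomes was not tested.

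**Figure D5:**
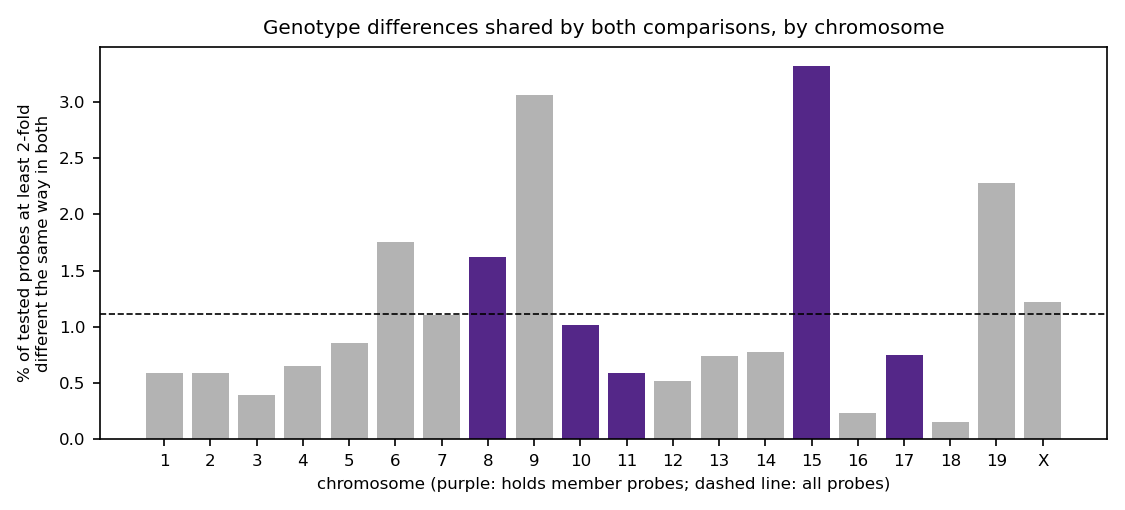
Share of tested probes called 2-fold the same way in both genotype comparisons, in percent, by chromosome. Purple bars are chromosomes that hold 1 or more of the 9 genes, and the dashed line is the share over all probes, 1.11%. Chromosomes 15 and 9 have the highest shares, 3.32% and 3.07%, and the other chromosomes of the 9 genes lie nearer the share over all chromosomes.

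The genes whose 4-array profile was nearest to each gene were taken over 18688 genes, with the Euclidean distance between profiles centred on their mean, in log2 units. The 9 genes were chosen by the differences that shape these profiles, so distances among them follow from the choice, and those of Raet1a and Raet1e rest on dim values. Fanca at 0.53 and Rrp7a at 0.54 were the nearest to Raet1a, followed by S74315 at 0.54. Raet1e was nearest to AK031453 at 0.53, Abra at 0.76 and TC1686295 at 0.99, and Abra to Raet1e at 0.76, AK031453 at 0.98 and TC1686295 at 1.35. The nearest to Fanca were S74315 at 0.28, Crygn at 0.31 and Rrp7a at 0.33. Rrp7a had S74315 at 0.21, TC1634701 at 0.29 and Crygn at 0.31, and Fam89a had Nxpe4 at 0.35, S74315 at 0.40 and Spem2 at 0.44. Among the higher genes, Agpat4 had Trat1 at 0.20, Npy at 0.38 and EU934872 at 0.42, Psca had Catspere1 at 0.64, 4933402N03Rik at 1.06 and Calcr at 1.41, and Pttg1 had Gria4 at 0.52, Enpp1 at 0.60 and Gapt at 0.67. Many of these were well above background on 2 arrays alone. With the pool limited to the 15648 genes measured above background on every array, a choice made after seeing the data, the nearest to Agpat4 was Cyp26b1 at 0.70, and Enpp1 at 0.89 and Pttg1 at 0.98 followed.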

How the data were processed

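Per the file headers, Agilent Feature Extraction 10.7.3.1 made the deposited Cy3 intensity values on array design 014868 (mm9), background-subtracted and detrended within each array and not scaled between arrays. The authors' deposited log2 value table was used as an alternative alone, and nothing in the sources used here says how it was made. Outlier-flagged spots were left out, the spots of a probe averaged, log2 taken and the array's 75th percentile over gene probes subtracted. Of 41174 gene probes, 27668 were named through RefSeq accessions (GRCm38, names alone). Scripts ran in Python 3.11.15 with numpy 2.4.6 and pandas 2.3.3, and R 4.3.3 with limma 3.58.1 for normexp, and were tested on simulated data. The rule named the 9 genes with every probe, list genes called in both genotype comparisons, neighbours within 500 kb called in either (1 is not reported here), the 3 nearest profiles of each gene and Tlr3. List genes called in 1 comparison were named after their values were seen. The genes and lists were chosen with earlier results of these data known. Depth is limited by 1 array per group, and standard errors cover spots alone.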

Additional observations from a re-analysis of the deposited data

How the results depend on the processing

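The 9 genes were called alike under most settings. Of their probes, 11 were called the same way in both genotype comparisons with quantile normalization, median centring, the deposited value table, outlier spots kept and no filter on dim probes, 10 with normexp, and 7 in each genotype comparison and in both where a probe had to be well above background on all 4 arrays. No called difference of these probes changed sign. The 1 probe called for tumor in WT cells was 0 with quantile normalization, median centring and the deposited table, and 2 were called for tumor in Tlr3-deficient cells with no filter. With normexp the call in each tumor comparison was another probe, Fanca A_52_P330214 in WT cells (1.01) and Agpat4 A_52_P3029 in Tlr3-deficient cells (-1.03). Counts over all probes depended more on the setting. For genotype with tumor, genotype without tumor, tumor in Tlr3-deficient cells and tumor in WT cells they were 1405, 2103, 2061 and 1842. They were 562, 1047, 929 and 791 with normexp, 3248, 4531, 4213 and 4138 with no filter, and 669, 1265, 1093 and 1015 on all 4 arrays. Called in both were 287 probes, against 145 with normexp, 686 with no filter and 1405 in the comparison with tumor alone. The share of genes whose probes agree without tumor was 9.55%, and 4.91% with normexp. Of calls without tumor, 73.3% were higher, against 63.0% with quantile normalization, and for tumor in WT cells 76.0% were, against 59.7% with median centring and 61.9% with quantile normalization. The median of tested probes without tumor was -0.04, against -0.15 with normexp, that for tumor in WT cells -0.01, against -0.16 with normexp and with median centring, and that for tumor in Tlr3-deficient cells -0.03, against -0.17 with no filter. Filters change which probes are tested, and the offset of normexp shrinks dim differences, both by construction. No paired analysis was possible because each group is 1 array. Probes near background give bounds alone.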

Other observations

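Outside the 9 genes, 11 probes differed by at least 8-fold in the same direction in both genotype comparisons, 8 of them with a symbol in the reference table. Among those higher in Tlr3-deficient cells was 5830417I10Rik on chromosome 3, at 1 probe at least 143-fold with tumor and at least 155-fold without. Gm6213 (chr8:40453492-40453551) was at least 139-fold lower with tumor and at least 110-fold lower without. Another probe of 5830417I10Rik, A_52_P105374 (chr3:88633201-88633260), does not overlap the first. Its log2 differences, as bounds where an array was dim, were 5.56 with tumor and 4.78 without. The probes A_52_P123459 and A_52_P562872 of 4930520O04Rik do not overlap either, and both were at least 8-fold lower in both comparisons. Whether these probes are specific to 1 gene was not checked. These genes were chosen after their values were seen, and the limit of 1 array per group holds here too.

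Among windows of 10 Mb with at least 20 tested probes, those with the highest shares of probes called the same way in both comparisons, the 9 genes left out, lay on chromosome 8 (6 of 58, 10.3%, from 30 Mb, and 7 of 79, 8.86%, from 40 Mb), chromosome 6 (4 of 48, 8.33%, from 0 Mb), chromosome 15 (7 of 90, 7.78%, from 30 Mb) and chromosome 9 (10 of 147, 6.80%, from 40 Mb). Of the marker genes of other cell types, Ltf (-1.52 with tumor and -1.79 without), a neutrophil granule gene, and Klrb1c (-1.58 and -1.45), a natural killer cell receptor, were called the same way in both comparisons. Of all genes by their brightest probe, 1.16% were. Ltf was the 1 neutrophil marker called for genotype, of 8 tested with tumor and 5 without, with medians of -0.69 and 0.21. Klrb1c was the 1 marker of T and natural killer cells so called, of 4 tested in each, with medians of -0.33 and -0.18.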
